A study of Homo sapiens with 12 samples.

Results

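Replication-dependent core histone genes were compared between neural progenitor cells (NPC) and the human embryonic stem cells (ESC) they were made from, in total RNA and in ribosome-bound RNA. The genes were chosen by name alone, as the symbols of the HIST1, HIST2, HIST3 and HIST4 clusters that carry H2A, H2B, H3 or H4 and do not end as pseudogenes do. This gave 68 of 59050 symbols in the count table, with 17 H2A, 22 H2B, 14 H3 and 15 H4 genes. RefSeq (GRCh38.p14) held an entry for all 68, of which 64 were protein coding and 4 were pseudogenes (HIST2H2BA, HIST2H2BC, HIST2H2BD and HIST3H2BA). The HIST1 cluster, with 49 genes at chr6:25726063-27893891, was set against 19 genes elsewhere, which were 14 of HIST2 and 4 of HIST3 on chromosome 1 and HIST4H4 at chr12:14770720-14771131.

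NPC were wild-type HUES8 cells after 7 days of neural induction with 2.5 uM SB431542, an inhibitor of activin and Nodal receptors, and 0.05 uM LDN193189, an inhibitor of BMP receptors, with SB431542 withdrawn for the last 2 days. ESC were wild-type HUES8 cells, an established human embryonic stem cell line, kept in mTeSR1. Each state had 3 libraries of ribosome-bound RNA and 3 of rRNA-depleted total RNA, 12 in all, and every library came from this single line. The method of ribosome isolation was not stated in those labels, and nothing says whether libraries came from separate cultures, so p-values measure only the spread between these samples.

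Core histones form the protein spool of the nucleosome, in which a tetramer of H3 and H4 is flanked by dimers of H2A and H2B. Cells make most of their supply in S phase from these intronless genes, many of which lie head to head in pairs and are transcribed in nuclear histone locus bodies. Most of their mRNAs carry a 3′ stem-loop and no poly(A) tail, and the stem-loop binding protein SLBP guides both their processing and their translation. In pluripotent stem cells, S phase is known to fill much of a short cell cycle.

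The genes share promoter elements that the choice by name did not use. In the 250 bases before the start, 59 of the 68 genes had a RefSeq sequence, and these were set against 27305 such windows of all genes. On either strand, TATAAA, the TATA box, stood in 67.8% of core histone windows and 11.1% of all windows. CCAAT stood in 83.1% and 33.0%, being in every H2A, H2B and H3 window and in 23.1% of H4 windows. The octamer ATTTGCAT, bound by the factor POU2F1 in H2B promoters, stood in 77.8% of H2B, 68.8% of H2A, 8.33% of H3 and none of the 13 H4 windows, against 1.66% of all windows. Windows of H2A and H2B genes that lie head to head overlap, so a single site can count in both classes and their shares are not independent. The only H3 window with the octamer, that of HIST1H3D, is the same stretch as that of HIST1H2AD. GGTCCG, part of the H4 element bound by HINFP and searched after the sequences had been seen, stood in 92.3% of H4, 8.33% of H3, 6.25% of H2A and 5.56% of H2B windows and 9.33% of all windows. Hits of different motifs overlapped at 3 places, and a match describes letters only.

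These 4 windows come from genes described below, and HIST2H2AC is shown as an exception, being the only one of 16 H2A windows with GGTCCG. All are from RefSeq GRCh38.p14, 5′ to 3′ on the gene's strand, with those 4 motifs on either strand in capitals. That of HIST1H2AE (chr6:26216671-26216920, plus strand) spans the whole gap to its neighbour HIST1H2BG, whose octamer and TATA box read on the other strand, and the others are HIST1H3B (chr6:26032100-26032349, minus strand), HIST1H4B (chr6:26027284-26027533, minus strand) and HIST2H2AC (chr1:149886668-149886917, plus strand).
HIST1H2AE: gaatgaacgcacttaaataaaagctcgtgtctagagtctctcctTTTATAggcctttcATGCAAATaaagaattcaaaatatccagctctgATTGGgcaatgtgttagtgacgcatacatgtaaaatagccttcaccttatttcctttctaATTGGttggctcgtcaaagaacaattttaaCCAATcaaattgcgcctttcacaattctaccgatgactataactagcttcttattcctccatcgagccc
HIST1H3B: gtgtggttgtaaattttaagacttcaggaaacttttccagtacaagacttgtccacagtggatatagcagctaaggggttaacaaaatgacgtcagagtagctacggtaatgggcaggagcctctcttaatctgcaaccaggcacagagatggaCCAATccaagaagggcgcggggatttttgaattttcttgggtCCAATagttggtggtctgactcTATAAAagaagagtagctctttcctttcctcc
HIST1H4B: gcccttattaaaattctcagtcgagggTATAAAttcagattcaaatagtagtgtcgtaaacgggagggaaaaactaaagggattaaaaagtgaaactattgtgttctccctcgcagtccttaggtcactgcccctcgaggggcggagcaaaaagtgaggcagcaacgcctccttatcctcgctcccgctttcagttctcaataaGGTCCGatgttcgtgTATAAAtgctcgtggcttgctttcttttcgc
HIST2H2AC: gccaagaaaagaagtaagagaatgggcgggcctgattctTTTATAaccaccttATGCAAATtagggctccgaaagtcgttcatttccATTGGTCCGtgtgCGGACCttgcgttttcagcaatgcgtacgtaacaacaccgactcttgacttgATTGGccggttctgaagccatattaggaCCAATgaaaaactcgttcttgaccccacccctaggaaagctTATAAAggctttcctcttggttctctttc

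Total counts were 19529738 to 35117370 in the RNA libraries and 2422756 to 4451196 in the ribosome-bound libraries. The 4 stem cell markers summed to 24.6 to 26.3 CPM (TMM-scaled counts relative to library size) in NPC RNA and 1828 to 2402 CPM in ESC RNA, and the 4 neural progenitor markers to 177 to 185 CPM in NPC and 11.6 to 13.6 CPM in ESC. Markers of neurons summed to 312 to 343 CPM in NPC RNA and 17.4 to 21.9 CPM in ESC RNA, nearly all of it MAP2 in NPC (306 to 336 CPM). Of the other neuron markers ELAVL3 was higher in NPC, DCX was lower (means of 2.97 CPM in NPC and 8.33 CPM in ESC) and STMN2 passed no test. Neural crest markers summed to 166 to 167 CPM in NPC RNA and 8.28 to 17.4 CPM in ESC RNA, with PAX3, TFAP2B and SOX10 higher in NPC and FOXD3 lower (means of 5.39 CPM in NPC and 12.9 CPM in ESC). The 3 mesoderm and endoderm markers in the table summed to 0.140 to 0.268 CPM in NPC RNA and 5.62 to 7.72 CPM in ESC RNA. On ribosomes they summed to 0.842 to 3.55 CPM in NPC and 170 to 240 CPM in ESC. The part of such cells in the results below was not tested, and in bulk RNA fewer cells of a type and less RNA per cell cannot be told apart. A pair of ESC libraries stood apart from their group. Across genes, which are not independent replicates, RNA_ESC replicate 3 correlated at 0.976 and 0.972 with replicates 1 and 2 (0.992 with each other), and RIBO_ESC replicate 2 at 0.928 and 0.941 with replicates 1 and 3 (0.977 with each other). The main counts and sums are therefore given with and without these libraries, and other values with all libraries unless stated.

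Core histone mRNA on ribosomes was much lower in NPC. The 68 genes together took 0.193%, 0.204% and 0.194% of ribosome-bound counts in NPC, against 1.95%, 2.75% and 2.09% in ESC. In total RNA they took 0.574%, 0.642% and 0.576% in NPC, against 0.913%, 1.00% and 0.541% in ESC, so that the third ESC library lay below all NPC libraries. Scaled sums on ribosomes were 2004 ± 34.5 CPM in NPC and 22699 ± 5418 CPM in ESC (SD, n = 3 each), an 11.3-fold lower level in NPC. In total RNA they were 5839 ± 403 CPM in NPC and 8429 ± 2659 CPM in ESC (SD, n = 3 each), a log2 difference of −0.53 with overlapping libraries. Without RIBO_ESC replicate 2 the ribosome-bound sum was 9.78-fold lower in NPC, and without RNA_ESC replicate 3 the RNA difference was −0.77.

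**Figure D1:**
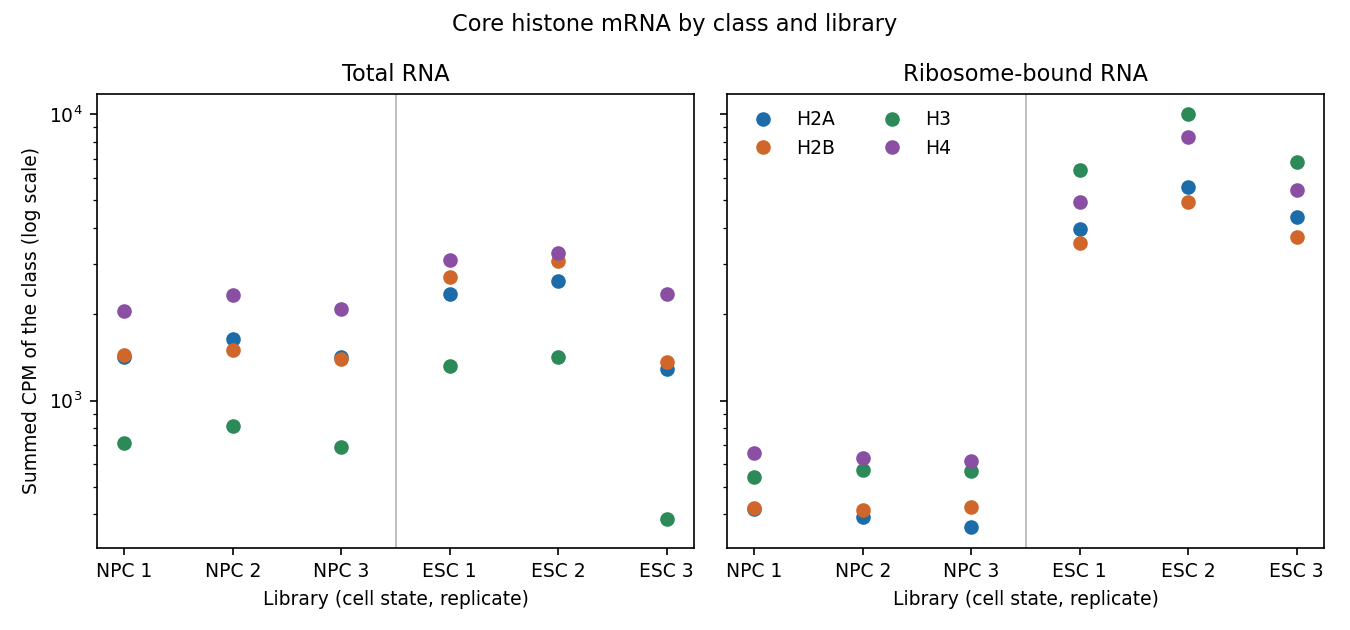
Summed CPM of the H2A, H2B, H3 and H4 genes in each library (log scale), with NPC libraries left of ESC libraries; each point is a library. On ribosomes every class lies between 361 and 656 CPM in NPC and between 3556 and 10010 CPM in ESC, whereas in total RNA the third ESC library falls to or below the NPC level for H2A, H2B and H3.

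All 4 classes had lower sums on ribosomes of NPC, by the largest fold for H3. The summed H3 level was 541, 572 and 569 CPM in NPC, against 6386, 10010 and 6797 CPM in ESC (13.8-fold lower in NPC). The sums were 11.9-fold lower for H2A, 9.86-fold for H4 and 9.71-fold for H2B, and no class had overlapping libraries. Without RIBO_ESC replicate 2 the folds were 11.8 for H3, 10.7 for H2A, 8.67 for H2B and 8.19 for H4. The order of H4 and H2B thus depended on that library. The make-up of the histone mRNA on ribosomes differed between the states as well. H3 took 28.0% ± 1.25 of core histone counts in NPC and 34.0% ± 0.63 in ESC, H4 31.6% ± 0.59 in NPC and 27.2% ± 1.45 in ESC, and H2B 21.0% ± 0.50 in NPC and 18.1% ± 0.88 in ESC (SD, n = 3 each), in each case without overlap. The H2A share, 19.5% ± 1.07 in NPC and 20.7% ± 1.19 in ESC (SD, n = 3 each), overlapped, through RIBO_ESC replicate 2 alone (19.3%).

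Gene by gene, 50 members had enough counts to be tested on ribosomes. All 50 were lower in NPC by edgeR's quasi-likelihood test with Benjamini-Hochberg adjustment over 12250 genes, of which 30.3% were called lower. Their median log2 fold change, NPC over ESC, was −3.56, against −0.01 over all genes tested, and their adjusted p-values by that test ran between 2.18e-07 and 0.00379. Every NPC library lay below every ESC library for all 50, as it did for 32.1% of all genes tested, while it lay above them for 35% of those genes. Some members, such as HIST3H3, HIST1H2BB, HIST1H3C and HIST2H2BF, had few or no counts in NPC and passed the count filter only through ESC. For such members a higher level in NPC was excluded beforehand, so they add nothing to these counts. Without RIBO_ESC replicate 2 all 50 were again lower, with a median of −3.43. The smallest fall, −2.31 for HIST2H2AB, still exceeded a 4-fold change.

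**Figure D2:**
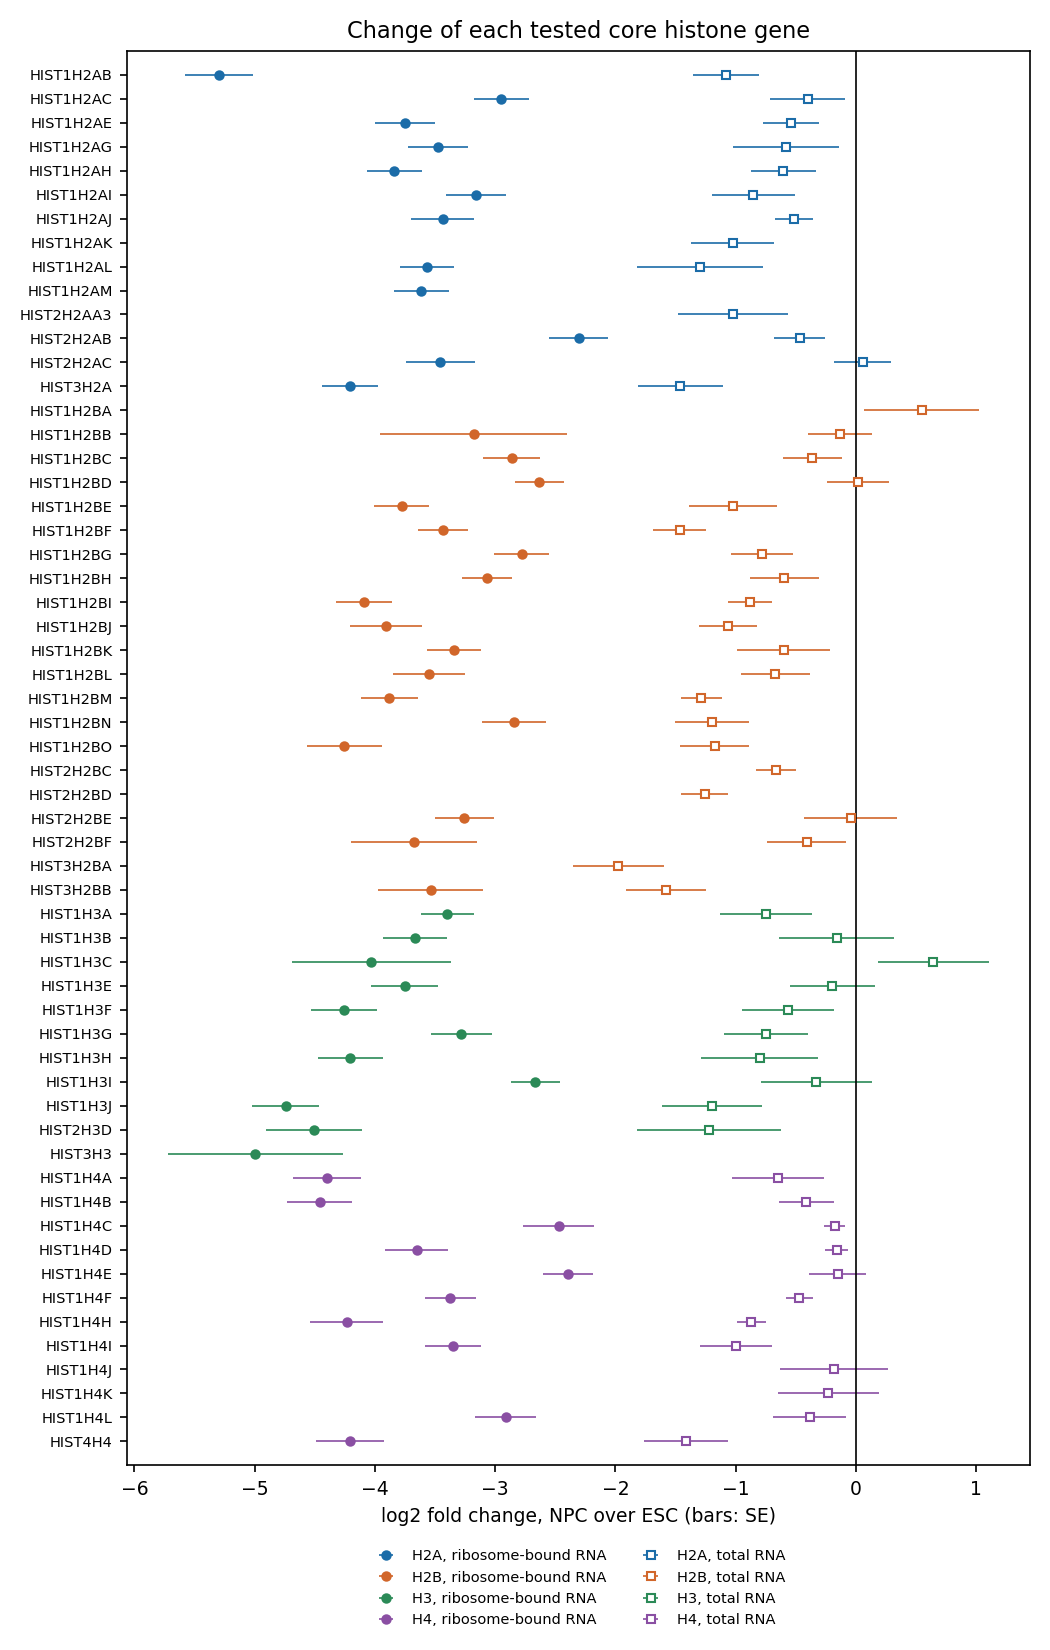
The log2 fold change of each tested core histone gene, NPC over ESC, with bars for the SE of the fit (3 libraries per state), filled circles for ribosome-bound RNA and open squares for total RNA, coloured by class. Ribosome-bound changes lie between −5.30 and −2.31, and total RNA changes between −1.97 and 0.64.

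Among H2A genes, which encode the partner of H2B in the outer dimers, 12 were tested on ribosomes, with a median of −3.52. HIST1H2AB (chr6:26033092-26033618) fell furthest of all core histone genes tested, with 6.78, 5.34 and 9.80 CPM in NPC against 267, 347 and 262 CPM in ESC. Its log2 fold change was −5.30 (SE 0.28, adjusted p = 2.18e-07, edgeR's quasi-likelihood test with Benjamini-Hochberg adjustment). No NPC library of this gene came near an ESC library. Among the H2A genes with the highest CPM on ribosomes was HIST1H2AE (chr6:26216921-26217437), with 77.4, 85.4 and 73.6 CPM in NPC against 880, 1321 and 980 CPM in ESC. HIST2H2AB, in the HIST2 cluster, changed least, with 51.0, 34.8 and 35.1 CPM in NPC against 156, 248 and 193 CPM in ESC. In total RNA 4 of 13 tested H2A genes were lower in NPC, against 26.2% of the 18631 genes tested there. Without RNA_ESC replicate 3, 13 of 13 were lower, against 34.7% of all genes.

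H2B had 17 genes tested on ribosomes, with a median of −3.43. HIST1H2BI (chr6:26272931-26273412) had 31.3, 31.7 and 33.7 CPM in NPC against 462, 641 and 548 CPM in ESC, a log2 fold change of −4.09 (SE 0.23). HIST1H2BO fell most among H2B genes, with 11.3, 10.4 and 7.29 CPM in NPC against 125, 253 and 172 CPM in ESC, and HIST1H2BD least, with 65.2, 62.1 and 54.0 CPM in NPC against 341, 412 and 373 CPM in ESC. For each of these genes every NPC library was below every ESC library on ribosomes. In total RNA H2B was the class with most calls, 12 of 21 tested genes lower, and 19 of 21 without RNA_ESC replicate 3. The shares of all genes lower were 26.2% and, without that library, 34.7%. The total RNA of HIST1H2BD was 180, 188 and 180 CPM in NPC against 208, 228 and 104 CPM in ESC, so the third ESC library turned a log2 fold change of −0.26 without it into 0.02 with it. HIST3H2BA, a pseudogene in RefSeq, had the most negative change in total RNA at −1.97 (SE 0.38), from under 2 CPM in every library.

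H3 genes encode the replicative form of the histone whose tail carries many of the known chromatin marks. All 11 tested on ribosomes fell, against 30.3% of all genes, with a median of −4.03. HIST3H3, HIST1H3C and HIST2H3D had few or no ribosome-bound counts in NPC and add nothing to that count. HIST1H3B (chr6:26031589-26032099) had 112, 114 and 136 CPM in NPC against 1273, 1979 and 1338 CPM in ESC, a log2 fold change of −3.66 (SE 0.27). HIST1H3E and HIST1H3F gave the same picture, with 84.5, 98.8 and 109 CPM in NPC against 1071, 1769 and 1099 CPM in ESC for HIST1H3E, and 64.9, 61.8 and 51.3 CPM in NPC against 947, 1477 and 982 CPM in ESC for HIST1H3F. The least change was in HIST1H3I (−2.67, SE 0.20). In total RNA only HIST1H3J of 10 tested H3 genes passed as lower, against 26.2% of all genes. Without RNA_ESC replicate 3, 10 of 11 passed as lower, against 34.7% of all genes. That library held 387 CPM of summed H3 RNA, against 1317 and 1418 CPM in the other ESC libraries. HIST1H3B shows the split for a single gene, with 156, 180 and 155 CPM of total RNA in NPC against 224, 270 and 53.0 CPM in ESC. HIST1H3C was at 2.26 CPM or below in every RNA library and passed no test there (log2 fold change 0.64, SE 0.46).

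H4 genes nearly all encode an identical protein, the partner of H3 in the central tetramer. The 10 tested on ribosomes had a median of −3.51. HIST1H4H (chr6:26285126-26285534), which had the highest ribosome-bound CPM per kilobase of gene span in ESC among the 59 members with a span of at most 600 bases, had 82.9, 76.1 and 81.4 CPM in NPC against 1127, 2137 and 1265 CPM in ESC, a log2 fold change of −4.23 (SE 0.30). HIST1H4C (chr6:26103933-26104337), first on that scale in NPC, had 252, 252 and 227 CPM in NPC against 966, 1987 and 1102 CPM in ESC, a smaller fall of −2.47 (SE 0.29). Their order differed between the states, with 196 CPM per kilobase for HIST1H4H and 602 for HIST1H4C in NPC, against 3691 and 3338 in ESC, where their libraries overlapped. HIST1H4B fell most among H4 genes, at −4.46 (SE 0.27), and HIST1H4E least, at −2.39 (SE 0.21).

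Total RNA of the tested H4 genes had a median log2 fold change of −0.40. HIST1H4C had 321, 363 and 335 CPM in NPC against 390, 391 and 369 CPM in ESC, so that every NPC library lay below every ESC library, by −0.18 on the log2 scale (SE 0.09, adjusted p = 0.128, edgeR's quasi-likelihood test with Benjamini-Hochberg adjustment). HIST1H4F, the highest of the same 59 in total RNA per kilobase of span in both states, had 714, 849 and 701 CPM in NPC against 1061, 1129 and 946 CPM in ESC and was lower at −0.47 (SE 0.11). Of 12 tested H4 genes 4 were lower in total RNA, and 12 of 12 without RNA_ESC replicate 3, against 26.2% and 34.7% of all genes.

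Over all classes, 21 of 56 tested members were lower in total RNA of NPC and none was higher, by edgeR's quasi-likelihood test with Benjamini-Hochberg adjustment, where 26.2% of all genes were called lower and 26.4% higher. At an unadjusted p under 0.05 edgeR and DESeq2 each had 0 members higher. The median was −0.63 for the members and 0.03 for all genes tested. In 16 of 56 every NPC library lay below every ESC library, against 29.9% of all genes tested, and in none did they lie above (32.9% of all genes). Without RNA_ESC replicate 3 the count was 54 of 57 lower and 0 higher, against 34.7% and 34.9% of all genes, with a median of −0.98, and 53 of 57 did not overlap, against 38.4%. In that library the members' median log2 CPM, set against the other ESC libraries, differed by −1.19, with 53 of 56 below them, whereas the median was −0.01 over all genes, 0.01 over 24 DNA replication and S phase genes and −0.77 over 8 linker histone genes. By class the median was −1.72 for H3, −1.14 for H2A, −1.08 for H4 and −1.05 for H2B.

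**Figure D3:**
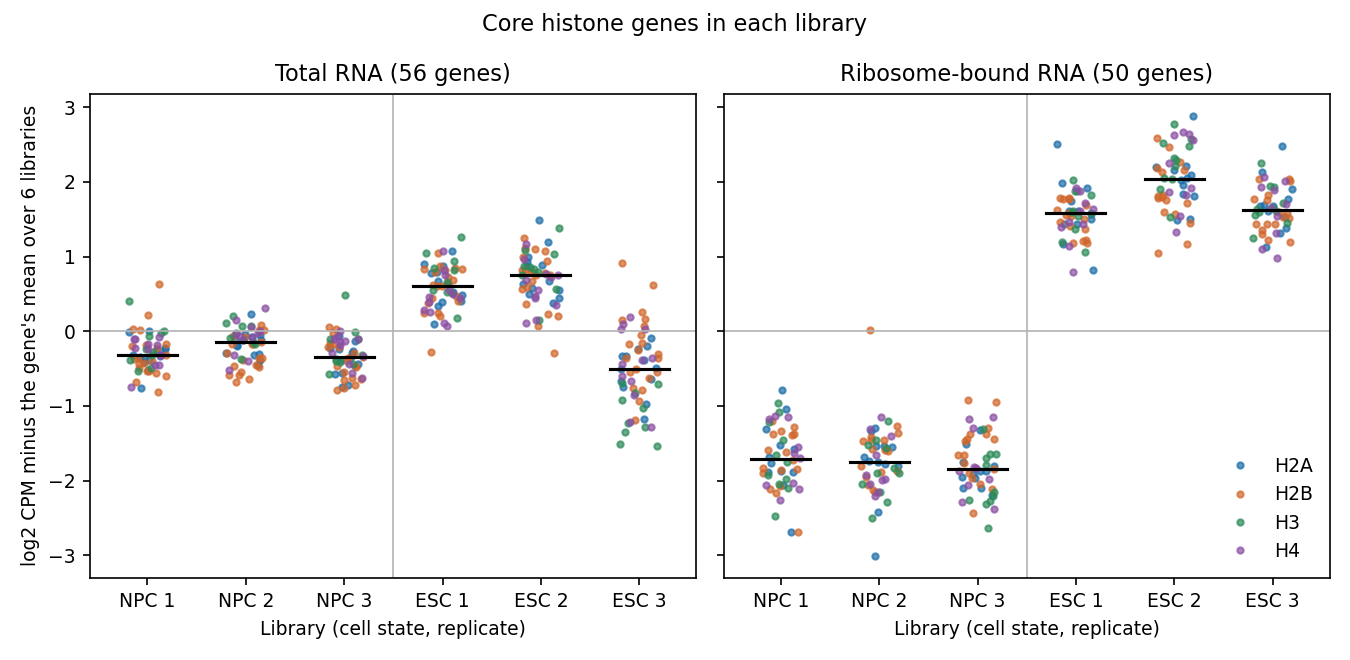
Each point is a tested core histone gene in a library, as log2 (CPM + 0.5) minus the gene's mean over the 6 libraries of the assay, coloured by class, with a black bar at the median and NPC libraries left of ESC libraries. In total RNA the genes of RNA_ESC replicate 3 lie around and below those of NPC, while on ribosomes all ESC libraries lie above all NPC libraries for each gene.

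The ribosome-bound change was larger than the RNA change in every member tested in both assays. The difference of the log2 fold changes, tested as the interaction of assay and state over 12 libraries, was below 0 in 48 of 48 members by edgeR's quasi-likelihood test with Benjamini-Hochberg adjustment, where 19% of 11866 genes were called lower and 22.9% higher. Its median was −2.93, against −0.05 over all genes tested, and its range was −4.81 (HIST1H3C) to −1.72 (HIST1H2BN). Among the 48, HIST1H3C, HIST1H2BB, HIST2H2BF, HIST2H3D and HIST3H2BB had few or no ribosome-bound counts in NPC and passed that filter only through ESC. For such members a fall on ribosomes was fixed beforehand, so they add nothing to this count. Their values, that of HIST1H3C at the end of the range included, are limited by the low counts. With both ESC libraries that stood apart left out, 48 of 49 were lower and none higher, against 29.3% and 29.5% of all genes, at a median of −2.39, and the exception was HIST3H3 (−0.56). These are relative quantities, since every library was scaled to its own total.

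Ribosome-bound over total RNA is read next within each state, as a log2 ratio of scaled levels. In NPC 32 of 48 members were lower on ribosomes than in total RNA and 4 were higher, against 33.3% and 30.8% of all genes, with a median of −1.33. In ESC 34 of 48 were higher on ribosomes and 6 were lower, against 30.6% and 37.5% of all genes, with a median of 1.75. The medians over all genes were −0.04 in NPC and −0.14 in ESC. The 4 higher in NPC, named after their values were seen, were HIST1H2AL (2.75), HIST1H3J (1.72), HIST1H3I (0.89) and HIST1H2BG (0.83). By class the medians were −1.29 in NPC and 1.76 in ESC for H2A, −1.69 and 0.88 for H2B, −0.15 and 3.07 for H3, and −0.91 and 1.91 for H4. H3 thus had the highest median ratio in both states and H2B the lowest. With both ESC libraries that stood apart left out of the fit, 37 of 49 were lower and 6 higher in NPC, against 40.1% and 37.4% of all genes, and 35 of 49 were higher and 11 lower in ESC, against 34% and 40.9%.

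**Figure D4:**
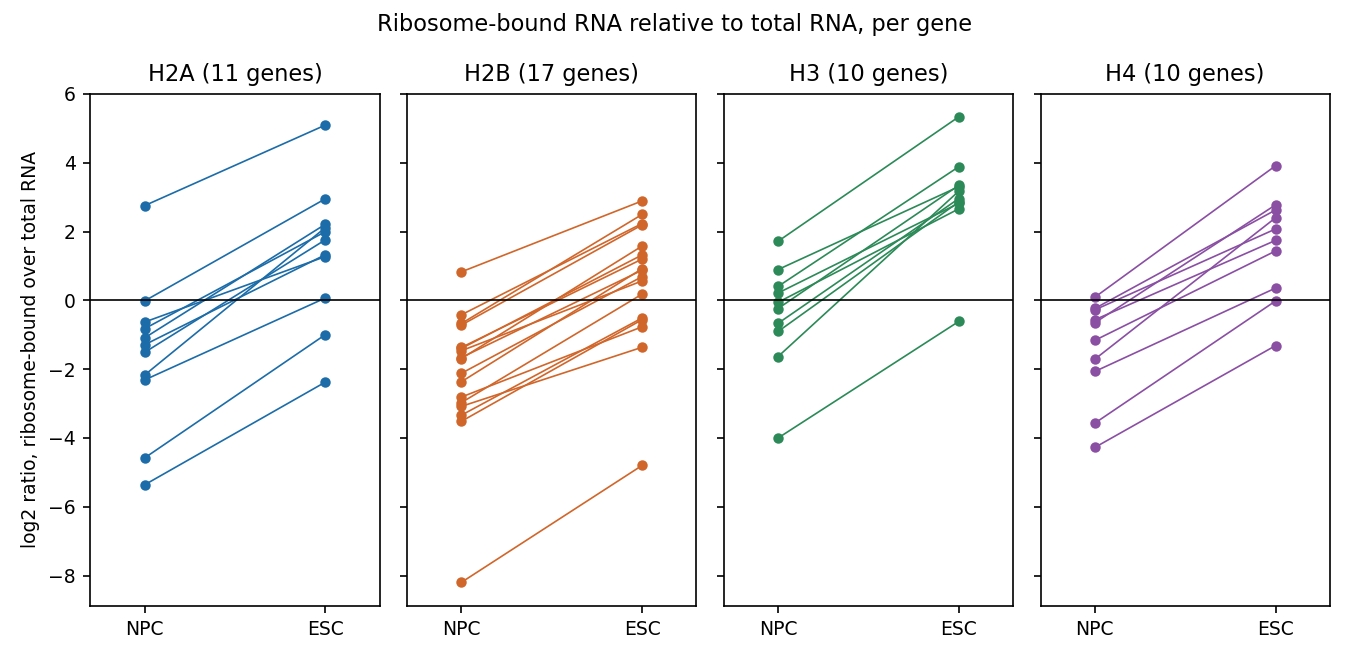
The log2 ratio of ribosome-bound over total RNA for each core histone gene tested in both assays, in NPC (left) and ESC (right) of each panel, with a line joining the values of a gene. Every line is higher in ESC, while the ratios over all 4 classes run from −8.20 to 2.75 in NPC and from −4.80 to 5.33 in ESC.

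The ratio differed far more between genes than its change did. Over the 48 members it spanned 10.9 log2 units in NPC and 10.1 in ESC, whereas its change between states spanned 3.09. HIST2H2BF alone set the lower end in NPC (−8.20) and ESC (−4.80), and next was HIST1H2AJ (−5.36 and −2.38). Spearman's rho between the ratios in NPC and in ESC was 0.89 over 48 genes, which share the libraries of each assay. Mean CPM in total RNA and on ribosomes ranked the genes less alike, with a rho of 0.45 in NPC and 0.35 in ESC.

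HIST1H2AL had the highest ratio in NPC and HIST2H2BF the lowest in both states, while the highest in ESC was that of HIST1H3J (5.33, against 5.09 for HIST1H2AL). HIST1H2AL (chr6:27865317-27865798) had 52.9, 51.7 and 53.8 CPM on ribosomes in NPC against 553, 743 and 581 CPM in ESC, but only 9.51, 10.1 and 7.43 CPM in total RNA of NPC against 23.8, 36.2 and 6.13 CPM in ESC. HIST2H2BF had 0.323, 0.281 and 0.912 CPM on ribosomes in NPC against 8.80, 5.64 and 7.28 CPM in ESC, beside 178, 195 and 182 CPM in total RNA of NPC against 276, 343 and 117 CPM in ESC. Its RefSeq span of 29682 bases overlaps FCGR1A, so part of its RNA counts may belong to another gene. HIST1H2AJ and HIST1H4F also had high total RNA and little on ribosomes, with ratios of −5.36 and −4.28 in NPC against −2.38 and −1.32 in ESC.

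Some members were seen in a single assay, and these were named after their values were seen. HIST1H2AK, HIST1H4J and HIST1H4K had 1940, 2205 and 3048 RNA counts over 6 libraries and none on ribosomes. HIST1H2AM had 19, 28 and 27 ribosome-bound counts in NPC against 291, 199 and 260 in ESC, and at most 4 counts in any RNA library. In all, 48 members were tested in both assays, 8 in total RNA alone, HIST1H2AM and HIST3H3 on ribosomes alone, and 10 in neither, and 12 had no ribosome-bound count at all. The near-identical copies HIST2H2AA3 and HIST2H2AA4, HIST2H3A and HIST2H3C, and HIST2H4A and HIST2H4B were all under 1 CPM, and HIST1H3D, whose span overlaps that of HIST1H2AD, had 0 counts everywhere. No source used here states how reads matching several histone genes were counted or whether strand was used, so the division of counts among similar genes, and the counts of the 13 members that overlap another gene, are uncertain. The part of such reads in these ratios was not tested.

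HIST1 and the other clusters had similar folds on ribosomes. The sums were 1899 ± 29.1 CPM in NPC and 21462 ± 5129 CPM in ESC for HIST1, and 105 ± 8.77 CPM in NPC and 1237 ± 293 CPM in ESC for the rest (SD, n = 3 each), which is 11.3-fold and 11.8-fold lower in NPC. HIST1 took 94.8% ± 0.38 of core histone counts on ribosomes in NPC and 94.5% ± 0.23 in ESC (SD, n = 3 each), with overlapping libraries. The near-identical HIST2 copies named above had no ribosome-bound count, and the handling of multiply matching reads is not stated. The HIST1 share and the HIST2 sums are thus of counted reads only and may leave out these copies. Within the rest, HIST2 was 7.01-fold, HIST3 18.4-fold and HIST4H4 18.6-fold lower in NPC. Without RIBO_ESC replicate 2 the folds were 9.76 for HIST1 and 10.3 for the rest. For HIST2, HIST3 and HIST4H4 they were then 6.02, 18.0 and 15.2, so the order of HIST3 and HIST4H4 depended on that library. HIST4H4, the single gene of its cluster, had 24.8, 30.0 and 30.3 CPM on ribosomes in NPC against 376, 716 and 489 CPM in ESC. HIST3H2A (chromosome 1, the HIST3 cluster) had 13.9, 10.7 and 16.6 CPM in NPC against 237, 268 and 262 CPM in ESC. In total RNA all 3 tested HIST3 genes and HIST4H4 were also lower in NPC, against 26.2% of all genes. They did not overlap, as was so for 29.9% of all genes. HIST3H2BA, among these 3, is a pseudogene in RefSeq with 133 RNA counts over 6 libraries. HIST3H2A had 26.0, 32.1 and 26.2 CPM of total RNA in NPC against 93.9, 102 and 35.2 CPM in ESC, a log2 fold change of −1.46 (SE 0.35). Of HIST2 genes 2 of 8 were lower in total RNA, namely HIST2H2BC and HIST2H2BD, both pseudogenes in RefSeq, and of HIST1 genes 15 of 44, against 26.2% of all genes. Without RNA_ESC replicate 3 all 8 HIST2 genes and 41 of 44 HIST1 genes were lower, against 34.7% of all genes. HIST2H2AC, among the highest H2A genes in total RNA, had 313, 366 and 297 CPM in NPC against 334, 405 and 197 CPM in ESC and passed on ribosomes (13.2, 12.9 and 9.57 CPM in NPC against 112, 183 and 97.7 CPM in ESC) but not in total RNA with all libraries.

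H2A and H2B genes that share a promoter region can be followed in pairs. Strand was known only for the 59 members with a promoter window, and among these there were 11 head-to-head pairs, with starts 194 to 248 bases apart. HIST1H2AH, which lies beside HIST1H2BK, had no window and was left out, so the pairs are not complete. On ribosomes both genes were tested in 8 of the 11 pairs. Their H2A change minus the H2B change ran from −0.97 to 0.64 on the log2 scale. HIST1H2AC and its partner HIST1H2BC were closest, at −2.95 (SE 0.23) and −2.86 (SE 0.24) on ribosomes and at −0.40 and −0.36 in total RNA. HIST1H2AE, whose window is printed above, fell by 3.75 on the log2 scale, against a fall by 2.78 for its partner HIST1H2BG. The pairs themselves differed from each other, with HIST3H2A and HIST3H2BB at −1.46 and −1.58 in total RNA and HIST2H2AC and HIST2H2BE at 0.06 and −0.04.

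Members known to give polyadenylated transcripts as well as stem-loop ones were HIST1H2AC, HIST1H2BC, HIST1H2BD, HIST1H2BJ, HIST1H2BK and HIST2H2BE. All 6 fell on ribosomes, against 30.3% of all genes, with a median of −3.10, beside −3.56 for all tested members. In total RNA HIST1H2BJ alone of the 6 passed as lower (−1.06), against 26.2% of all genes. Without RNA_ESC replicate 3 all 6 passed as lower, against 34.7% of all genes. Of the genes known from testis, HIST1H2AA had at most 2 counts in any library. HIST1H2BA, at 0.755 ± 0.397 CPM in NPC RNA and 0.508 ± 0.225 CPM in ESC RNA (SD, n = 3 each), passed no test. HIST3H3 was detected mainly in ESC, on ribosomes with 0.645, 0 and 0 CPM in NPC against 6.28, 8.67 and 6.20 CPM in ESC. Its RNA counts, 47 over 6 libraries, were too few for the test with all libraries. Without RNA_ESC replicate 3 it was tested and called lower in total RNA (−4.70, SE 0.70).

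Other genes of chromatin supply give the setting. Their counts stand beside 26.2% of all genes lower and 26.4% higher in total RNA, and 30.3% lower and 31.6% higher on ribosomes. The linker histones, which bind DNA between nucleosomes, divided by type on ribosomes. The HIST1H1 genes HIST1H1A, HIST1H1B, HIST1H1C, HIST1H1D, HIST1H1E and HIST1H1T fell on ribosomes (log2 fold changes −4.12 to −1.67), while the replication-independent H1F0 rose by 2.25 and H1FX by 0.96. In total RNA 3 of 8 rose, H1F0 by 2.35, H1FX by 1.05 and HIST1H1T by 0.47, and 2 fell, HIST1H1A and HIST1H1D. HIST1H1T had 4.58, 5.18 and 4.19 CPM of total RNA in NPC against 3.53, 3.39 and 3.12 CPM in ESC. Without RNA_ESC replicate 3 the same 3 were higher and the other 5 lower. Of the replication-independent variants of the core histones 3 of 8 fell on ribosomes, namely H2AFX (−1.06), H2AFZ (−0.73) and H2AFJ (−2.30), and H2AFY2 (1.76) and H3F3B (0.90) rose, shares near those of all genes on ribosomes. The medians on ribosomes were −2.70 for 8 linker histones and −0.13 for the 8 variants.

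**Figure D5:**
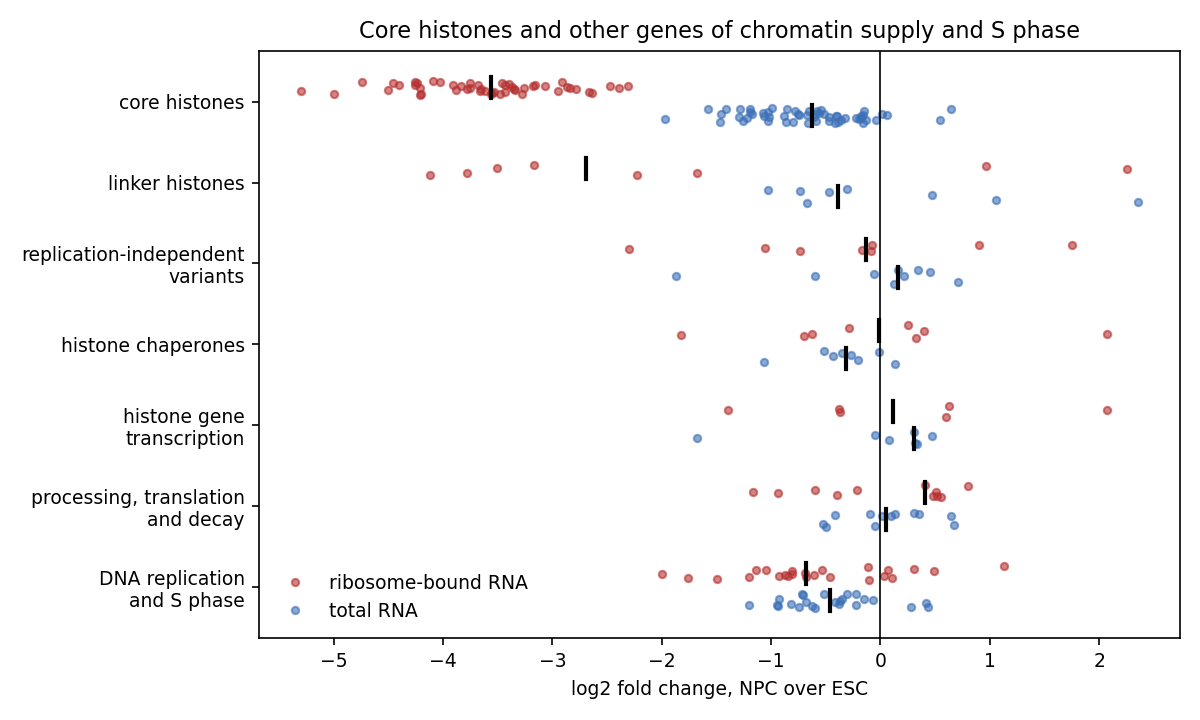
The log2 fold change, NPC over ESC, of tested core histones and of genes in 6 other lists, with ribosome-bound RNA in red above total RNA in blue, a point per gene and a black bar at the median. On ribosomes the medians are −3.56 for core histones, −2.70 for linker histones and −0.68 for DNA replication and S phase genes.

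S phase genes fell to a smaller extent. In total RNA 15 of 24 were lower and 2 higher, with a median of −0.47, and on ribosomes 12 were lower and 1, the S phase regulator E2F1, was higher, with a median of −0.68. The shares of all genes lower were 26.2% in total RNA and 30.3% on ribosomes. Without RNA_ESC replicate 3 the count in total RNA was 20 of 24 lower, against 34.7% of all genes. Examples on ribosomes were MCM5 (−1.49) and MCM6 (−1.14), parts of the replicative helicase, PCNA (−1.05), the sliding clamp, and RRM2 (−1.76), a subunit of ribonucleotide reductase. RIBO_ESC replicate 2 had lower levels of this list (−0.81 in the median against the other ESC libraries) and higher levels of core histones (0.45), and without it 19 of 24 were lower on ribosomes, at a median of −0.95, against 33.3% of all genes. Whether the share of cells in S phase moved with the histone levels was not tested.

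With all libraries, genes that transcribe, process and hand over histones changed in both directions. Of the transcription list CCNE1, the cyclin that activates CDK2 at the start of S phase, fell in total RNA (−1.68) and on ribosomes (−1.39), CDK2 rose in total RNA (0.47) and CASP8AP2, a component of histone locus bodies, rose on ribosomes (2.07). NPAT, the coactivator of histone genes, and HINFP, which binds the H4 element, passed no test in either assay with all libraries. Without RNA_ESC replicate 3 the transcription list had 6 of 7 higher in total RNA, NPAT (0.47) and HINFP (0.21) among them, and CCNE1 lower, against 1 and 1 with it. Over all genes 34.9% were higher and 34.7% lower without that library. Without RIBO_ESC replicate 2 HINFP was lower on ribosomes (−0.43). SLBP was at −0.09 (SE 0.10) in total RNA and 0.41 (SE 0.18) on ribosomes, neither past the threshold with all libraries. Without RIBO_ESC replicate 2 SLBP was called higher on ribosomes (0.35, SE 0.16). Of the processing, translation and decay list the cleavage factors CPSF2 (−0.93) and CSTF2 (−0.60) and the SLBP partner MIF4GD (−1.17) fell on ribosomes, and the scaffold SYMPK rose (0.80). Without RIBO_ESC replicate 2 MIF4GD was not called (−0.79) and CPSF3 was called lower (−0.73). In total RNA 2 of 12 were higher, ZNF473 and MIF4GD, and 3 were lower, CPSF2, CSTF2 and SRRT, and without RNA_ESC replicate 3 these counts were 4 and 4. The chaperone list of 8 genes includes the acetyltransferase HAT1. Of these genes HAT1 (−1.82), ASF1A (−0.63) and ASF1B (−0.70) fell on ribosomes and NAP1L1 rose (2.07), while CHAF1A, NASP and NAP1L4 fell in total RNA. Without RIBO_ESC replicate 2 NASP was called lower on ribosomes as well (−0.50).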

How the data were processed

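The authors deposited whole-number counts per gene symbol in a table with a column for each of 12 libraries, and these counts were used without change. Per the submitters' processing notes, cutadapt 1.18, Bowtie 1.2, STAR 2.7.1a and featureCounts 1.6.4 were used with builds hg38 and GRCh38. The sources used here give neither their roles nor the annotation, nor how strand and multiply matching reads were handled. The members and lists were chosen with earlier results of these data known.

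Each assay was fitted with edgeR 4.0.16 in R 4.3.3 (TMM scaling, the filterByExpr filter, the quasi-likelihood F test and a Benjamini-Hochberg adjusted p threshold of 0.05 over all genes tested). The interaction of assay and state, and ribosome-bound over total RNA within a state, came from a fit over 12 libraries of genes that passed the filter in both assays. The SE is the log2 fold change divided by the square root of F. CPM were scaled by TMM within each assay. A count of 0 allows up to 3 counts, equal to 0.0854 to 0.154 CPM in RNA and 0.674 to 1.24 CPM in ribosome-bound libraries, for counting error only. The tests were tried on simulated counts first.

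Named by rule were, per class, the members with the highest CPM and the largest and smallest changes in each assay, all tested members outside HIST1, and the lists. Alternatives were RLE scaling, library totals, no filter, DESeq2 1.42.0, the replicate block, summed near-identical copies and leaving out each library. Alternatives leaving out the ESC libraries that stood apart were added after the data were seen. Names, spans and promoters came from RefSeq, and no genome was used. Summaries and plots used Python 3.11.15 with pandas 2.3.3, numpy 2.4.6 and matplotlib 3.10.9.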

Additional observations from a re-analysis of the deposited data

Results flagged for a closer look

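Symbols that end as pseudogenes do were left out of the comparisons, and 4 of 13 nevertheless had more than 3 counts in a library. HIST1H2APS4 had 30, 44 and 44 RNA counts in NPC against 101, 133 and 93 in ESC, and 2, 2 and 4 ribosome-bound counts in NPC against 24, 11 and 30 in ESC. The highest RNA counts were 12 for HIST2H3PS2, which RefSeq lists as protein coding, and 4 for HIST1H4PS1, and HIST1H2BPS3 reached 4 ribosome-bound counts.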

How the results depend on the processing

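Shares over all genes were taken only for the main fit and for leaving out the ESC libraries that stood apart. Counts under the other alternatives are therefore set only against the member counts of the main fit. On ribosomes 50 members were lower with RLE scaling, DESeq2, or any library left out, and 51 with no filter. Without a filter, 35 of 67 members were lower in total RNA, 1 was higher in the interaction, and 10 had lower ribosome-bound than total RNA in ESC (11 with both ESC libraries that stood apart left out). Leaving out each library gave 15 to 54 lower members in total RNA, 27 to 35 with lower ribosome-bound than total RNA in NPC and 5 to 9 in ESC. In total RNA HIST1H2BD ranged from −0.26 to 0.21 and HIST2H2AC from −0.19 to 0.27 over the libraries left out, each negative and called without RNA_ESC replicate 3 (adjusted p = 0.000362 and 0.0187, edgeR), and HIST1H2BO to −0.40 (adjusted p = 0.00346, edgeR) for ribosome-bound over total RNA in ESC with both left out. Among named members, 53 single calls were lost and 49 gained over all alternatives, 2558 held, and the causes were not tested. Whether replicate numbers pair the samples is not stated, and with 3 libraries per state these values cannot settle it. Deviations of same-numbered NPC and ESC libraries correlated at 0.11, 0.09 and 0.27 in total RNA and −0.18, −0.26 and −0.01 on ribosomes. Those of different numbers ran from −0.23 to 0.13 in total RNA and from −0.15 to 0.23 on ribosomes. With the replicate block 24 members were lower in total RNA, 50 on ribosomes and 48 in the interaction. The shallow ribosome-bound libraries limit members near 1 CPM, such as HIST1H2BB and HIST1H3C.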
